A study of Mus musculus with 12 samples.

Results

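Desmosomes are spot-like junctions that fasten the intermediate filaments of neighboring cells to each other. The RNA of 10 mouse genes that encode their parts was followed in xenograft tumors of SVR cells, an endothelial angiosarcoma line. The members were taken by gene name from the 54232 genes of the count table, and comprise the plakin Dsp, the armadillo proteins Jup, Pkp1, Pkp2, Pkp3 and Pkp4 and the cadherins Dsg2, Dsg3, Dsc2 and Dsc3. Of these 10 genes, 6 had enough counts to be tested (Dsp, Jup, Pkp1, Pkp3, Pkp4 and Dsc3), and Pkp2, Dsg2, Dsg3 and Dsc2 had not. The tumors were grown in nude mice, for which the labels give C57BL/6 as the strain, and 3 were sequenced in each of 4 groups. Control mice received vehicle, and the other mice received the MEK inhibitor trametinib at 1 mg/kg, the VEGF receptor inhibitor cediranib at 3 mg/kg, or both at these doses (combination). All were treated by daily gavage. The labels give ulceration or a size limit as the end of treatment, while the study also describes an experiment with a common time of harvest, so the time on treatment is not known for any library. A single cell line was used, and because RNA came from lysate of the whole tumor, mouse tumor cells, stroma and overlying mouse skin cannot be told apart by sequence. In such tissue fewer cells of a type and less RNA per cell cannot be told apart.

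In a desmosome the outer parts of the cadherins, desmogleins (Dsg) and desmocollins (Dsc), bind those of the next cell. Their tails hold plakoglobin (Jup) and plakophilins (Pkp), which in turn hold desmoplakin (Dsp), the link to keratin or, in some cells, to desmin or vimentin. Every desmosome needs Dsp and Jup, whereas Pkp1, Pkp3, Dsg3 and Dsc3 are best known from stratified epithelia such as the epidermis, and Pkp2, Dsg2 and Dsc2 from simple epithelia and heart. Endothelial cells have no classical desmosomes. They use Jup at adherens junctions, where it binds VE-cadherin (Cdh5), and Pkp4 (also called p0071) is a widely expressed relative of p120-catenin found at several kinds of junction.

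The members lie apart on chromosomes 13 (Dsp), 11 (Jup), 1 (Pkp1), 16 (Pkp2), 7 (Pkp3) and 2 (Pkp4), and the 4 cadherin genes share another chromosome. The 3 promoters shown here are those RefSeq gives for a gene whose level ranged widely between tumors (Dsp) and for a pair whose levels did not (Jup and Pkp4). The other 7 members had no entry in the RefSeq promoter table used. Each sequence is the 250 bases before a transcription start, on the strand of the gene, in build GRCm38.p6. Dsp lies on the plus strand (chr13:38151044-38151293), Jup on the minus strand (chr11:100397791-100398040) and Pkp4, at the first of its starts in the table, on the plus strand (chr2:59160600-59160849). Capitals mark the GC box GGGCGG and the CCAAT box CCAAT, read on both strands.
Dsp: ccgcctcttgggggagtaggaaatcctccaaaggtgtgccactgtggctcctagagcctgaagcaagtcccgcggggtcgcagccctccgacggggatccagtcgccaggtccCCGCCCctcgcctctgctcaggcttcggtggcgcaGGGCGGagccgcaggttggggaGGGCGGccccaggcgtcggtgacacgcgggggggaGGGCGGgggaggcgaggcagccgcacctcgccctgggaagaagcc
Jup: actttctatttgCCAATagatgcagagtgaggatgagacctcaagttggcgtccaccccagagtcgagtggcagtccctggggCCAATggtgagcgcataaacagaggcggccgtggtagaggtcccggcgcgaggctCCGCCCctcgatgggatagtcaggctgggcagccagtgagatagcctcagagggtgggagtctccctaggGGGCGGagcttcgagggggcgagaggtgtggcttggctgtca
Pkp4: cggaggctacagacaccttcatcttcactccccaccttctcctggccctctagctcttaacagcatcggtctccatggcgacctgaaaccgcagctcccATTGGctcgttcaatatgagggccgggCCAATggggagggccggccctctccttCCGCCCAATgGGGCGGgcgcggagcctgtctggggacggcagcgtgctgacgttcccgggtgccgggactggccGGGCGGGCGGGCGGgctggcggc
The Dsp window held 4 GC boxes, that of Jup 2 and that of Pkp4 5, while 32.7% of the 32851 promoter windows of this length held at least 1. CCAAT was found 0 times in the Dsp window, 2 times in that of Jup and 3 times in that of Pkp4, where 1 match overlaps a GC box, and in 33.8% of all windows. The letters TATAAA (12.4% of all windows), TGANTCA, an AP-1 motif (6.75%), and CACCTG, an E-box (17.2%), are not in these 3 windows. Pkp4 has a second start in the table, whose window held 0 GC boxes, 0 CCAAT boxes and 1 CACCTG, and the first is shown because it is the start of the annotated gene. The counts in the window of Pkp4 therefore depend on the start chosen. G and C made up 72.4% of the Dsp, 62.0% of the Jup and 68.4% of the Pkp4 window, against a median of 52.4% over all windows. The windows held 22, 13 and 21 CG pairs in the same order, against a median of 6.

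The libraries held 9478865 to 11666094 counts, and values are given in CPM (counts per 1000000 counts of the library) after TMM normalization. At these depths 3 counts, the limit that a count of 0 allows, came to 0.251 to 0.349 CPM. The limit and the intervals of counts cover counting error only. Control 1 and cediranib 2 stood apart from the other tumors of their groups in the basal keratins Krt5 and Krt14, which mark the proliferating layer of the epidermis. Their summed level was 520 CPM in control 1 and 1.31 to 3.24 CPM in the other controls, and 4.73 CPM in cediranib 2 and 1523 to 2637 CPM in the other cediranib tumors. It was 0.502 to 5.90 CPM in the trametinib and 2629 to 3920 CPM in the combination tumors. The summed level of 23 other epidermal genes, chosen without keratins or desmosome genes, ran from 23.0 to 41.7 CPM in control, 4.90 to 6.52 in trametinib, 42.2 to 127 in cediranib and 121 to 188 in combination tumors. The number of the 23 genes at 0 was 3, 18 and 15 in control, 19, 11 and 15 in trametinib, 1, 10 and 1 in cediranib and 1, 0 and 2 in combination tumors, so controls 2 and 3 lay within the range of the trametinib tumors. Ivl (involucrin) alone made up 33.9 of 41.7 CPM in control 2. Without it the remaining 22 genes summed to 7.80 to 29.3 CPM in control, 4.90 to 6.52 in trametinib, 9.17 to 115 in cediranib and 116 to 181 in combination tumors. The 14 endothelial genes summed to 259 to 522 CPM in control, 117 to 177 in trametinib, 161 to 404 in cediranib and 82.1 to 147 in combination tumors. Of these, Cdh5 was well measured (45.3 to 120 CPM in control tumors) while Pecam1, which encodes CD31, lay at 3.14 to 4.60 CPM there.

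**Figure D1:**
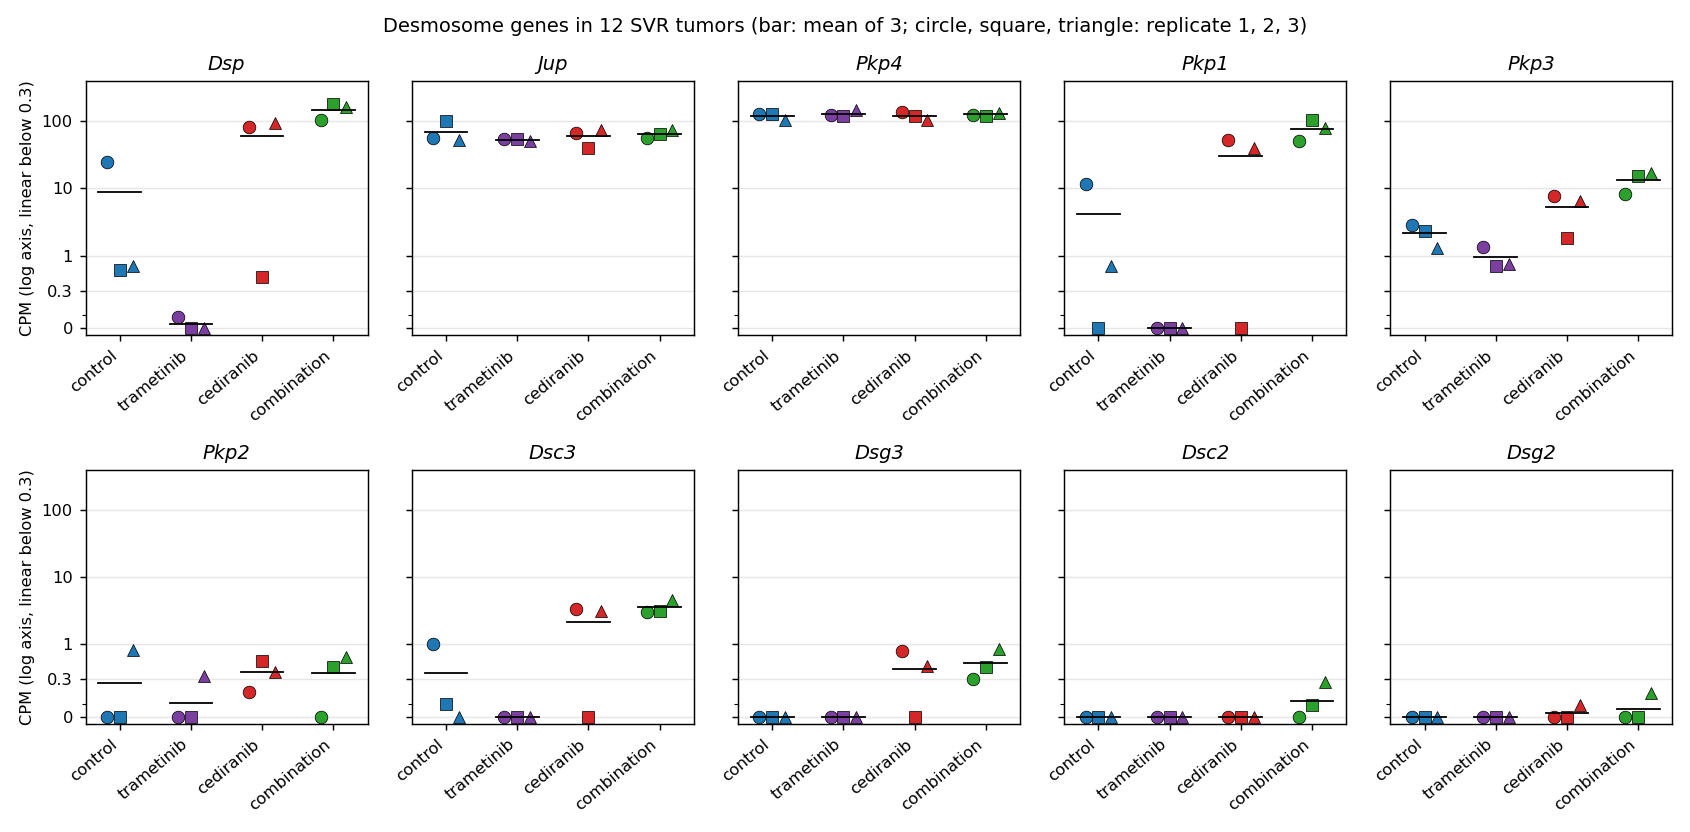
CPM of the 10 desmosome genes in the 12 tumors, 1 panel a gene, on an axis that is logarithmic above 0.3 CPM and linear below it. Bars mark the mean of 3 tumors, and the circle, square and triangle are replicates 1, 2 and 3. Pkp4 and Jup stayed level across tumors, and Dsp, Pkp1 and Dsc3 were high in all combination tumors and at or near 0 in all trametinib tumors.

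The armadillo genes Jup and Pkp4 were measured at similar levels in all 12 tumors, including those with almost no basal keratin. Pkp4 was 128, 129 and 106 CPM in control, 126, 121 and 146 in trametinib, 136, 121 and 104 in cediranib and 123, 122 and 136 in combination tumors. All 4 groups overlapped, and the highest tumor exceeded the lowest 1.40-fold. Jup was 56.8, 102 and 52.7 CPM in control, 53.9, 55.3 and 51.8 in trametinib, 66.2, 40.8 and 73.2 in cediranib and 57.2, 64.1 and 73.9 in combination tumors. Control 2 was the high tumor and cediranib 2 the low one, 2.49-fold apart, and every combination tumor lay above every trametinib tumor. None of the pairwise comparisons of these genes passed the test. For Pkp4 the estimate closest to a change was trametinib against cediranib, with a log2 fold change of 0.12 (SE 0.13, adjusted p = 0.623, edgeR quasi-likelihood test). All 6 of its 95% intervals lay between −0.32 and 0.40 on the log2 scale. The intervals of Jup were wider, from −0.94 to 0.83, and its largest estimate was −0.39 for trametinib against control (SE 0.25, adjusted p = 0.431). Without control 2 that value was −0.03.

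Desmoplakin RNA, in contrast, ranged from 0 to 179 CPM. Dsp was 25.0, 0.608 and 0.707 CPM in control tumors (293, 6 and 7 counts), and 0.0908, 0 and 0 CPM in trametinib tumors, a single count in all 3. It was 83.7, 0.473 and 95.3 CPM in cediranib and 105, 179 and 164 CPM in combination tumors. The high tumors were all 3 of the combination, cediranib 1 and 3 and control 1, which are also the 6 with over 500 CPM of Krt5 and Krt14. All combination tumors were above every other tumor, and all trametinib tumors were below every other. Although Dsp is the plakin of every desmosome, it did not share the even level of Jup.

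The plakophilins Pkp1 and Pkp3, both of stratified epithelia, differed from each other in the low tumors. Pkp1 was 11.6, 0 and 0.707 CPM in control, 0 in each trametinib tumor, 52.2, 0 and 40.6 in cediranib and 50.5, 106 and 78.6 in combination tumors. It was thus at 0 counts in 5 tumors and high in the same 6 tumors as Dsp. Pkp3 was found in all 12 tumors, at 2.81, 2.33 and 1.31 CPM in control, 1.36, 0.698 and 0.754 in trametinib, 7.69, 1.797 and 6.60 in cediranib and 8.18, 15.4 and 17.1 in combination tumors. The combination tumors were above all others, while cediranib 1 and 3 were above the controls and cediranib 2 was among them. Per kb of gene length the median over the 12 tumors was 21.8 CPM for Pkp4, 8.85 for Jup, 1.33 for Dsp, 1.22 for Pkp1 and 0.711 for Pkp3. The highest tumor of Pkp1, at 21.0 CPM per kb, came close to the level of Pkp4, and the highest of Pkp3 was 4.72. Pkp2, known from heart and simple epithelia, had 36 counts in all 12 libraries together, and its highest tumor, control 3, reached 0.808 CPM. Its tumors with over 3 counts, 6 in number, were spread over all 4 groups.

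The cadherins had few counts. RNA was captured with exome probes, and the part of probe design in these levels was not tested. Dsc3, a desmocollin of the basal epidermis, was 1.02, 0.101 and 0 CPM in control, 0 in each trametinib tumor, 3.30, 0 and 3.16 in cediranib and 3.03, 3.18 and 4.55 in combination tumors. Its tumors above 1 CPM were again the 6 with high Dsp. Dsg3, the desmoglein bound by antibodies in pemphigus vulgaris, had 30 counts in all. These were 8, 0 and 5 in cediranib and 3, 5 and 9 in combination tumors, with 0 in every control and trametinib tumor. Its highest level, 0.835 CPM in combination 3, is low, and the gene was below the filter for testing. Dsg2 had 3 counts and Dsc2 4 counts over all 12 tumors, with no library above 3, so neither was detected beyond that limit in any group. Between tumors the members therefore fell into 3 sets. Jup, Pkp4 and, at a low level, Pkp3 had over 3 counts in all 12 libraries. Dsp, Pkp1 and Dsc3 had 0 counts in at least 2 libraries and passed 1 CPM in 6. Pkp2, Dsg2, Dsg3 and Dsc2 stayed under 1 CPM throughout. By what they are known for, the 4 genes of stratified epithelia are spread over all 3 sets, with Pkp3 in the first, Pkp1 and Dsc3 in the second and Dsg3 in the third. These sets were drawn after the values were seen.

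**Figure D2:**
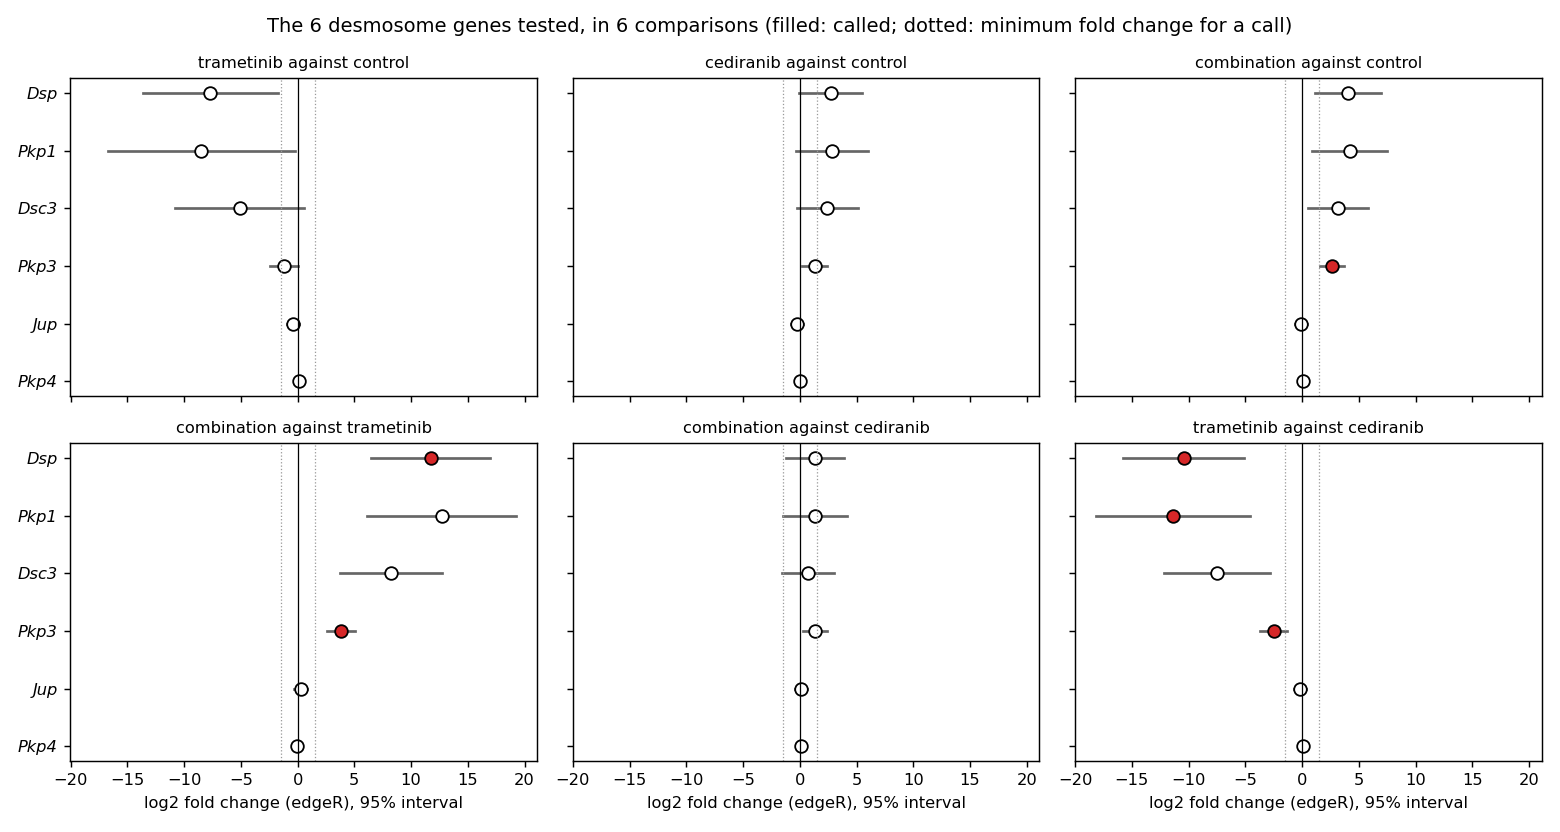
Log2 fold change of the 6 tested desmosome genes in 6 comparisons, with 95% intervals from the edgeR fit. Filled red points passed an adjusted p of 0.05 with a log2 fold change of at least 1.5 (dotted lines). Jup and Pkp4 lie near 0 in each comparison, and called points belong to Dsp, Pkp1 and Pkp3. Points of Pkp1 and Dsc3 against the trametinib group, which had 0 counts, depend on the prior count.

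Trametinib was compared with control to ask how MEK inhibition alone changed these genes, and 0 of the 6 tested members passed the threshold (adjusted p of 0.05 and log2 fold change of at least 1.5), where 2.4% of all 12897 tested genes did. At an unadjusted p under 0.05 there were 2, Dsp and Pkp1, beside 20.7% of all genes, and DESeq2 called the same 2 genes. Dsp counts were 306-fold lower per library size (95% counting interval 54.6 to 12143, log2 fold change −7.68, SE 2.73, adjusted p = 0.130), and its groups did not overlap, as was so for 12.9% of genes in that direction. Leaving out control 1, the only control with many Dsp counts, moved the log2 fold change to −3.95. Pkp1 was at least 47.7-fold lower (3 counts over the group as the limit, adjusted p = 0.229) and Dsc3 at least 4.34-fold lower (adjusted p = 0.297). Pkp3 had a log2 fold change of −1.18 (SE 0.56, adjusted p = 0.262). The summed 23 epidermal genes did not overlap between these groups, with or without Ivl, whereas the number of them at 0 did. Their part in these values was not tested.

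For VEGF receptor inhibition alone, cediranib against control, 0 of 6 members passed, and 0% of all tested genes did. DESeq2 also called 0 members, and 1 member, Pkp3, had an unadjusted p under 0.05, beside 4.32% of all genes. Log2 fold changes were 2.74 for Dsp (SE 1.28), 2.87 for Pkp1 (SE 1.42), 2.40 for Dsc3 (SE 1.20) and 1.30 for Pkp3 (SE 0.50), each with an adjusted p of 0.999. Each of the 4 genes was above all controls in cediranib 1 and 3 and no higher than the highest control in cediranib 2. Without cediranib 2 the Dsp value was 3.32, and without control 1 it was 6.47, also not called.

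The combination against control asked what both drugs did together, and 1 of 6 members, Pkp3, rose (log2 fold change 2.64, SE 0.50, adjusted p = 0.00888), beside 1.91% of all genes called higher. This call held when any 1 of the 6 tumors was left out, with values of 2.39 to 2.91. Dsp (log2 fold change 4.06, SE 1.33, adjusted p = 0.0746), Pkp1 (4.21, SE 1.48, adjusted p = 0.101) and Dsc3 (3.14, SE 1.19, adjusted p = 0.122) had higher estimates and wider errors. All 4 of these genes were without overlap between the groups, against 15.6% of genes in that direction. Without control 1, the control with high Dsp and Pkp1, both genes were called, at 7.80 (adjusted p = 0.0159) and 7.74 (adjusted p = 0.0402), and 3 members passed in place of 1. Jup had a log2 fold change of −0.11 (SE 0.25) and Pkp4 of 0.07 (SE 0.13).

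Combination against trametinib gave the largest differences, and it asks what cediranib added to trametinib. Of 6 members, 2 rose, where 0.535% of all genes were called higher. Dsp rose 4760.1-fold in counts per library size (95% counting interval 854 to 188054, log2 fold change 11.74, SE 2.41, adjusted p = 0.0464), and Pkp3 rose with a log2 fold change of 3.83 (SE 0.55, adjusted p = 0.0196). Pkp1 was at least 833-fold higher and Dsc3 at least 37.8-fold higher, with adjusted p of 0.0722 and 0.0803, both past the threshold with DESeq2. These 4 genes and Jup were without overlap, against 12.4% of genes, although the log2 fold change of Jup was 0.28 (SE 0.25, adjusted p = 0.606). The call of Dsp was lost when any 1 of the 6 tumors was left out (adjusted p of 0.0951 to 0.141). That of Pkp3 was lost without trametinib 2, trametinib 3, combination 2 or combination 3 (adjusted p up to 0.0727). The epidermal sums of the 2 groups did not overlap. With the mean level of the epidermal genes as a term in the fit 0 members were called in any comparison. That level, in log2 CPM, ran from −1.66 to −1.35 in trametinib and from 2.51 to 3.21 in combination tumors. The fit cannot tell it apart from treatment here, and no conclusion is drawn from it.

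Against cediranib, the combination had 0 members called, beside 2.45% of all genes, and DESeq2 likewise called 0. Pkp3 (log2 fold change 1.34, SE 0.47, adjusted p = 0.105) had the only unadjusted p under 0.05, beside 23.1% of all genes. Dsp (1.32, SE 1.18) and Pkp3 were without overlap, against 14.1% of genes, the Dsp gap being from 95.3 to 105 CPM. Pkp1 (1.34, SE 1.28) and Dsc3 (0.74, SE 1.02) overlapped. In Pkp1 combination 1 was below cediranib 1. In Dsc3 combination 1 was below cediranib 1 and 3, and combination 2 was below cediranib 1. The 95% interval of Dsp, from −1.24 to 3.88, leaves room for a change in either direction.

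The single agents were set against each other last. Trametinib tumors had lower values than cediranib tumors in 3 called members, beside 1.97% of all genes called lower. Dsp fell 1869.8-fold in counts per library size (95% counting interval 335 to 73894, log2 fold change −10.42, SE 2.44, adjusted p = 0.0225), Pkp3 fell by 2.49 on the log2 scale (SE 0.55, adjusted p = 0.0165), and Pkp1 was at least 321-fold lower (adjusted p = 0.0479). Dsp and Pkp3 were without overlap, against 13.9% of genes, whereas Pkp1 was at 0 in cediranib 2 as in the trametinib tumors. Dsc3 was at least 22.4-fold lower (adjusted p = 0.0557). In a fit of these 2 groups alone Dsp, Pkp1 and Dsc3 did not pass the filter. They were tested here because the filter ran over all 4 groups, the combination included. The same was so for trametinib against control. Other cell types differed in this comparison too. The 23 epidermal genes summed to 4.90 to 6.52 CPM in trametinib and 42.2 to 127 CPM in cediranib tumors, with 9 of 15 tested called lower. The 6 fibroblast genes summed to 7029 to 32705 and 1280 to 5617 CPM in the same order. Of these, 3 of 6 were called higher, as were 196 of all 12897 tested genes. The 8 skeletal muscle genes summed to 222 to 23481 and 10.3 to 131 CPM. Their part in the values of the members was not tested. Without cediranib 2 the members called were 4, Dsc3 included. Leaving out trametinib 1 left 1, Pkp3, and leaving out trametinib 2, trametinib 3, cediranib 1 or cediranib 3 left 0.

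Whether cediranib acted differently with and without trametinib was asked by the interaction contrast, in which 0 members and 0% of all genes were called, also by DESeq2 for the members. At an unadjusted p under 0.05 there were 3 members, Dsp (9.003 on the log2 scale, SE 3.03, adjusted p = 0.665), Pkp1 (9.81, SE 3.92, adjusted p = 0.682) and Pkp3 (2.52, SE 0.73, adjusted p = 0.611). The share of all genes at that level was 7.05%. Dsp was the 1 member apart and lower under trametinib than in control while apart and higher in the combination than under cediranib, as were 0.264% of all genes. The values of Dsp and Pkp1 rest on trametinib libraries with 1 count and with 0 counts.

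**Figure D3:**
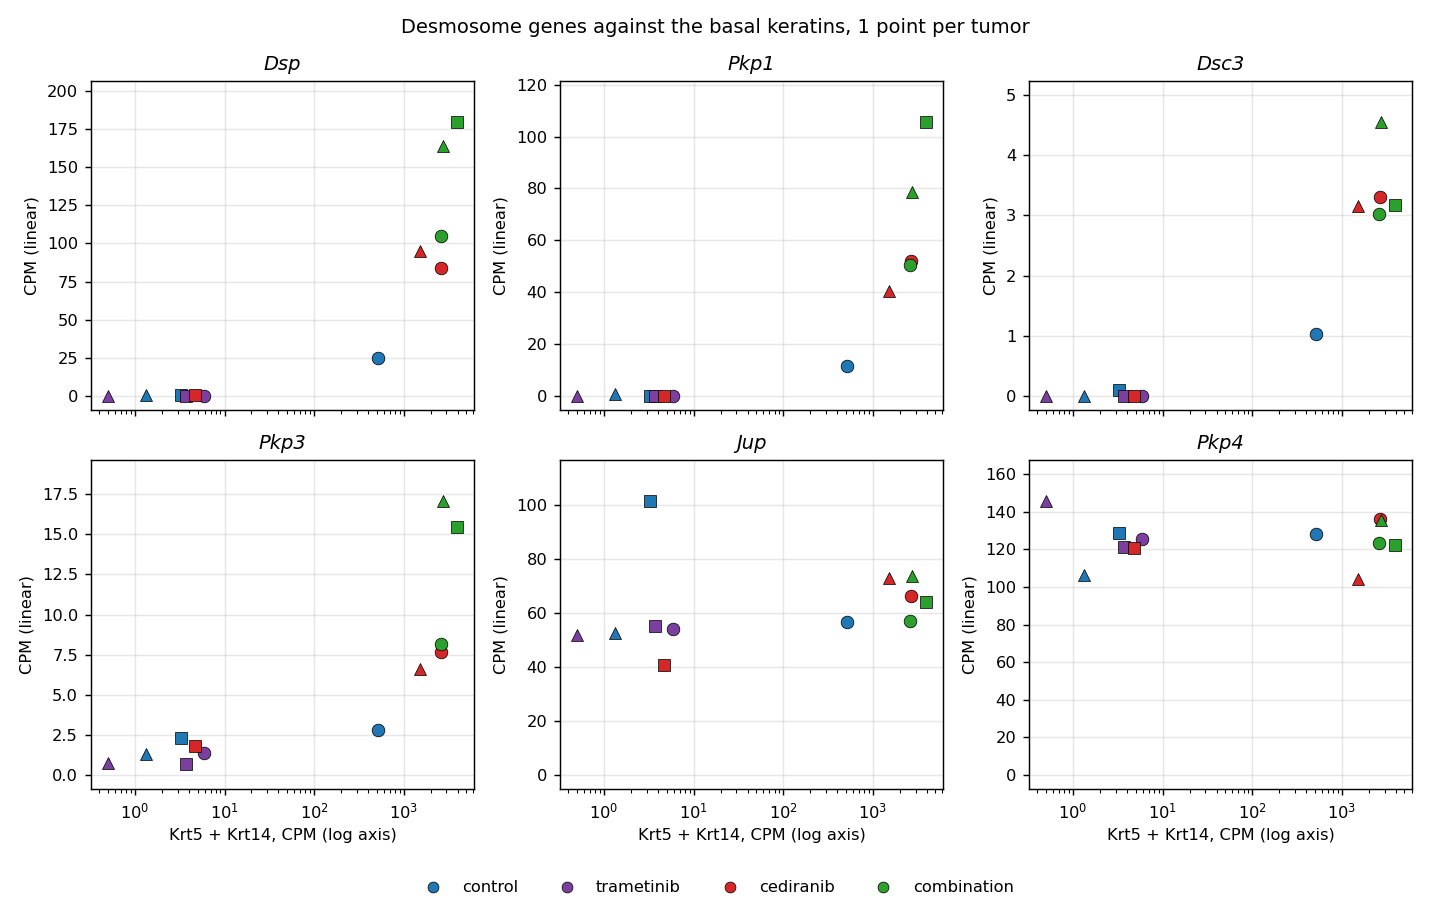
CPM of 6 desmosome genes (linear axis) against the summed CPM of Krt5 and Krt14 (logarithmic axis), 1 point a tumor. The 6 tumors at 520 to 3920 CPM of keratin hold nearly all Dsp, Pkp1 and Dsc3, and the 6 tumors at 0.502 to 5.90 CPM hold similar levels of Pkp4 and Jup.

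In the 6 tumors with more than 100 Dsp counts, the ratio of other members to Dsp was computed. Pkp1 had 0.426 to 0.623 counts for each Dsp count, with a median of 0.481. The lowest ratio, in cediranib 3 (95% counting interval 0.379 to 0.477), and the highest, in cediranib 1 (0.557 to 0.696), differed by more than counting error. Pkp3 had 0.0693 to 0.113 counts for each Dsp count and Dsc3 0.0177 to 0.0410. The ratio of Dsc3 also differed beyond counting error, with 95% intervals of 0.0123 to 0.0247 in combination 2 and 0.0269 to 0.0557 in cediranib 1. Dsg3 had 0 to 0.242 counts for each Dsc3 count. The ratio of Jup to Dsp had a wider range, from 0.357 to 2.28. For every 100 counts of Krt5 and Krt14 there were 3.18 to 6.26 of Dsp and 1.92 to 2.88 of Pkp1 in these tumors, so that control 1, with the lowest keratin level of the 6, had 4.80 Dsp counts and 2.23 Pkp1 counts, inside the range of the rest. For Pkp3 the range was 0.292 to 0.626 and for Dsc3 0.0811 to 0.207. In the 6 other tumors Pkp3 had 6 to 23 counts beside 6 to 65 keratin counts, so its level there did not come in that proportion. Nor did that of Dsp in control 2, control 3 and cediranib 2, at 18.75, 53.8 and 10.0 for 100 keratin counts. These rest on 6, 7 and 5 Dsp counts. In trametinib tumors Dsp was at 1.54, 0 and 0. Pkp1 was at 53.8 in control 3, on 7 counts, and had 0 counts in 5 tumors.

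Genes with the profile nearest to a member were sought among all tested genes, by the root mean square difference of centered log2 CPM over the 12 tumors. This is a description, since the points share libraries and groups. For Dsp the nearest was Pkp1 (0.642), then Krt16, a keratin of hair follicle and wounded epidermis (0.690), and Gm44383 (0.767), while the SD of Dsp itself was 4.20. Dsc3 was 44th, Pkp3 107th and Jup 2734th from Dsp, with counting noise at the low level of Dsc3 and Pkp3 included in that distance. For Pkp1 the nearest were Dsp, Gm44383 (0.645) and Krt16 (0.674). The genes nearest to Jup were Arhgef40 (0.160), Zfp512b (0.170) and Mat2a (0.177), against an SD of 0.331. Those nearest to Pkp4 were 4930473A02Rik (0.0813), Tsc2 (0.0846) and Mapkap1 (0.0894), against an SD of 0.138.

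**Figure D4:**
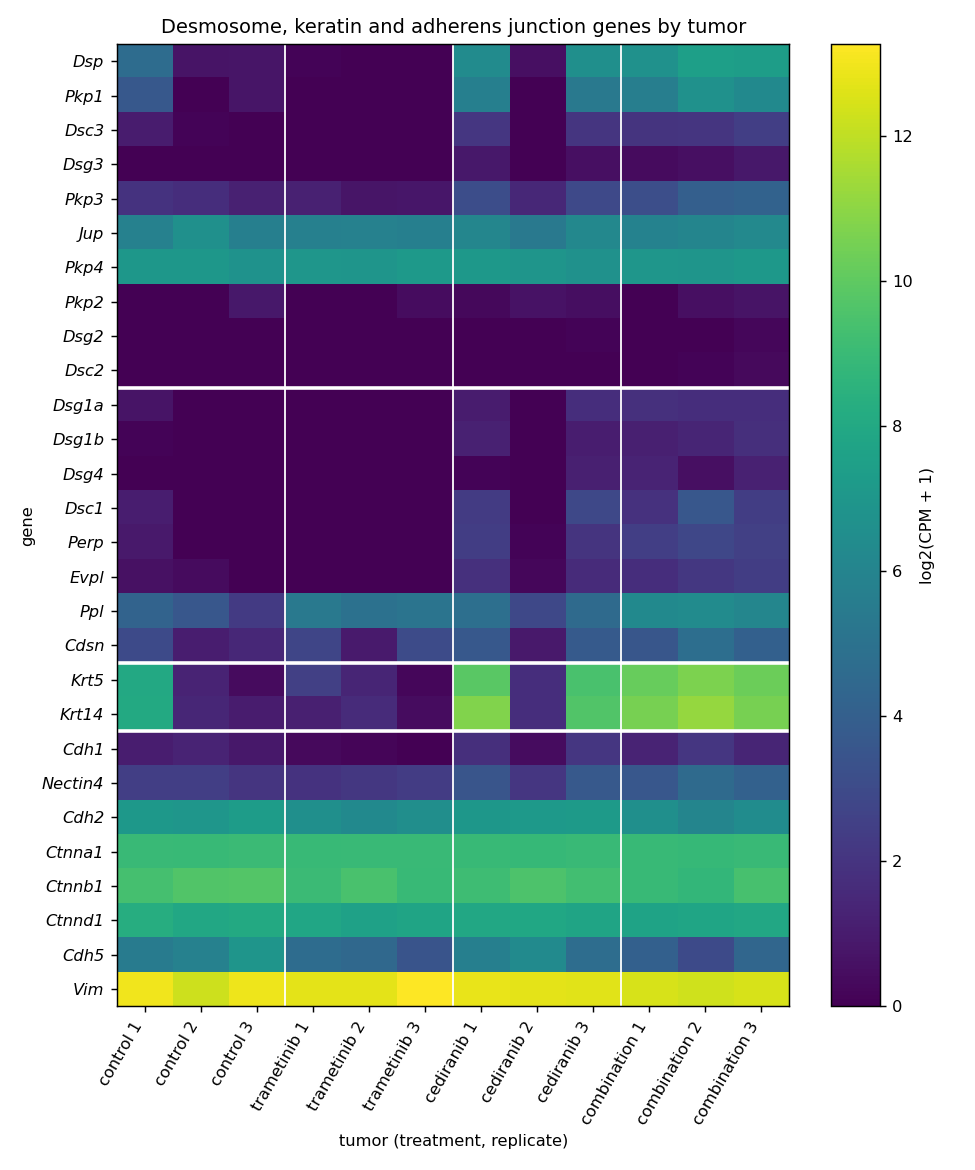
Heat map of log2(CPM + 1) for 28 genes in the 12 tumors, ordered by group and replicate. From the top it holds the 10 desmosome genes, 8 other desmosome and cornified envelope genes, Krt5 and Krt14, and adherens junction genes with Vim. Bright cells of Dsp and Pkp1 fall in the columns where Krt5 and Krt14 are bright, and the rows of Pkp4, Jup and the catenins change little.

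Other desmosome and envelope genes were read from a list of 9, of which 8 were tested and Dsg1c was at 0 in every tumor. In the combination against control, 3 of 8 rose and 0 fell, beside 1.91% of all genes called higher, and all 8 were without overlap, beside 15.6% of all genes in that direction. The 3 were Dsg1b, a desmoglein with 1 count in the controls (55.7-fold in counts per library size, 95% counting interval 9.59 to 2238, adjusted p = 0.0294), and the envelope plakins Evpl (3.52, SE 0.93, adjusted p = 0.0407) and Ppl (2.79, SE 0.52, adjusted p = 0.00845). The list median was 3.51, with the gene at 0 in control set at its bound, beside 0.00155 over all tested genes. Only the call of Ppl among these 3 held when any 1 tumor was left out. With the mean level of the epidermal genes as a term in the fit none of the 3 was called, Ppl being at 0.99 (adjusted p = 0.569). That level did not overlap between these groups. Against trametinib Evpl was at least 35.5-fold higher in the combination (adjusted p = 0.0442), the only call of 8, beside 0.535% of all genes called higher. It was lost when any 1 of the 6 tumors was left out (adjusted p of 0.0897 to 0.120). The median with bounds was 4.45, beside −0.01 over all genes. Trametinib tumors were below cediranib tumors in 2 of 8, beside 1.97% of all genes called lower. These were Evpl (at least 16.9-fold, adjusted p = 0.0239) and Perp, a tetraspan protein of desmosomes (at least 25.8-fold, adjusted p = 0.0425). Both calls were lost without any 1 of these tumors but cediranib 2 (adjusted p up to 0.0719 for Evpl and 0.121 for Perp). For trametinib and for cediranib against control edgeR called 0 of 8, with 2 (Ppl and Evpl, in opposite directions) and 4 genes (all higher) at an unadjusted p under 0.05, where 20.7% and 4.32% of all genes were. DESeq2 calls were not counted for this list.

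Ppl, the periplakin gene, departed from the rest of that list. It was 17.7, 11.4 and 3.84 CPM in control, 39.9, 29.7 and 32.9 in trametinib, 27.8, 6.43 and 23.2 in cediranib and 77.8, 83.9 and 67.8 in combination tumors. Trametinib tumors, where 6 of the other 7 tested genes of the list were at 0, were thus all above the controls in Ppl (log2 fold change 1.63, SE 0.51, adjusted p = 0.0822). It was also the 1 gene of the list that rose in the combination against cediranib (2.00, SE 0.50, adjusted p = 0.0341), beside 2.45% of all genes called in either direction. That call was lost without any 1 of the 6 tumors. Cdsn, which encodes corneodesmosin, was the other gene of the list detected under trametinib, at 5.81, 0.931 and 7.03 CPM.

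Adherens junction genes were read from a list of 14, with 12 tested. For trametinib against control 3 had higher and 9 lower estimates. Of the 12, 5 were apart lower, beside 12.9% of all genes, and 1 was called, beside 2.4%. Another 2 were apart higher, for which the share of all genes was not counted. Unadjusted p was under 0.05 in 8 of the 12, beside 20.7% of all genes. Their median log2 fold change was −0.28 for trametinib, −0.04 for cediranib and −0.12 for the combination against control, beside 0.00573, −0.00268 and 0.00155 over all tested genes. Cdh5, the cadherin that Jup joins in endothelial cells, was 45.3, 55.2 and 120 CPM in control, 24.4, 21.3 and 9.88 in trametinib, 52.4, 79.6 and 26.0 in cediranib and 15.9, 6.90 and 19.9 in combination tumors. Every tumor given trametinib, alone or in the combination, was below every tumor that was not. The share of all genes with this order was not counted. Cdh5 fell in trametinib (log2 fold change −1.99, SE 0.52, adjusted p = 0.0423) and in the combination (−2.37, SE 0.53, adjusted p = 0.0173) against control. The first call was lost without control 2, control 3 (−1.44) or any 1 trametinib tumor, and the second without control 3 (−1.83), combination 1 or combination 2, with adjusted p up to 0.167 and 0.0719. Jup did not pass in either comparison. Nectin4, an adhesion molecule of epithelia, rose in the combination against control (2.06, SE 0.42, adjusted p = 0.0119) and against trametinib (2.27, adjusted p = 0.0370), the first lost without control 3 (adjusted p = 0.0560) and the second without any 1 of its 6 tumors. Cdh1, the epithelial E-cadherin, was lower under trametinib than under cediranib (−3.88, adjusted p = 0.0231), which was lost without trametinib 2, trametinib 3, cediranib 1 or cediranib 3 (−3.83, −3.27, −3.71 and −3.37).

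Among 8 genes of filaments that junctions can anchor, Vim, the vimentin of mesenchymal and endothelial cells, lay at 4951 to 9851 CPM in all tumors with 0 calls, and Krt18, a keratin of simple epithelia, fell by 2.03 in trametinib and fell by 3.76 in the combination against control (adjusted p = 0.0206 and 0.00169). The first of these was lost without control 2 (−1.47) or any 1 trametinib tumor. Krt14 was lower in trametinib than in cediranib tumors (−9.47, adjusted p = 0.0361), and this was lost when any 1 of the 6 tumors but cediranib 2 was left out (adjusted p of 0.0670 to 0.124). In that comparison Krt18 was lower (−1.87, adjusted p = 0.0256) and Des, the muscle filament desmin, higher (4.64, adjusted p = 0.04995), and both calls were lost when any 1 tumor was left out, except that of Des without trametinib 1. The call of Des was also lost with the size factors of DESeq2 (adjusted p = 0.0506) and in a fit of these 2 groups alone (adjusted p = 0.0507). Krt18 also fell in the combination against cediranib (−3.60, adjusted p = 0.00216). Hemidesmosomes, which fasten epithelial cells to the basement membrane, were read from 9 genes, all tested, of which 2 rose and 1 fell in the combination against control (median log2 fold change 1.47), beside 1.91% and 1.71% of all genes, and 1 fell in trametinib (median −0.24), beside 2.4% called in either direction. The integrin Itga6, also made by endothelial cells, fell by 3.25 in trametinib and fell by 2.50 in the combination against control (adjusted p = 1.62e-05 and 0.000225), and both calls held without any 1 tumor. The laminin chains Lama3 and Lamb3 rose in the combination against control (2.68 and 2.63, adjusted p = 0.00917 and 0.0266), the former also without any 1 tumor and the latter not without control 1, control 3, combination 2 or combination 3 (adjusted p up to 0.107). With the mean level of the epidermal genes as a term in the fit neither was called (1.91 and 1.85, adjusted p = 0.395 and 0.605). Itga6 was also lower in the combination (−2.45) and in trametinib (−3.20) than in cediranib tumors, with adjusted p of 0.000202 and 1.89e-05. Lamb3, with 2 counts in the trametinib tumors, was 45.3-fold higher in the combination (95% counting interval 12.2 to 380, adjusted p = 0.0237) and 26.4-fold higher in cediranib tumors (6.96 to 224, adjusted p = 0.00865), both on counts per library size. The first call was lost when any 1 of its tumors but combination 1 was left out, and the second passed whichever tumor was left out. Both were lost with the epidermal term (adjusted p = 0.917 and 0.167).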

How the data were processed

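RNA of 12 SVR xenograft tumors, 3 each after vehicle (control), trametinib, cediranib and the combination, was captured with exome probes (TruSeq RNA Exome) and sequenced. Probe design therefore bears on the level of each gene. Per the submitters' processing notes, the authors called bases with bcl2fastq 1.8.4, aligned with STAR 2.7.1a to GRCm38 and counted with featureCounts 1.6.0. The deposited values were raw counts per gene. How strand and multiply aligned reads were handled, and the annotation release, is not given in the sources used. Counts of Dsp, Pkp1 and Dsg2 may include reads of the overlapping genes Gm10129, Gm36938 and Gm16090. Which of the treatment experiments a tumor came from is not given either.

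Counts of 12897 genes that passed filterByExpr (minimum count 10, minimum total 15, from 29102 with a count) were scaled by TMM, and all 12 libraries entered a single quasi-likelihood fit (edgeR 4.0.16, R 4.3.3), which was tested on simulated data. The biological coefficient of variation was 27.2%. Calls required an adjusted p of 0.05 (Benjamini-Hochberg over all tested genes) with a log2 fold change of 1.5 or more in size. The methods of the study name edgeR and this threshold. SE was derived from the fold change and F. Against a group with 0 counts, a fold is a bound with 3 counts over that group. Gene lengths are those in the deposited table. P-values measure the spread between these tumors. All 10 members are named. From other lists the called genes are named, or the 4 with the largest change where over 4 are called, with Krt5, Krt14, Cdh5, Pecam1 and Vim for reference and the 3 genes of nearest profile. The members, lists and rules were chosen with earlier results of these data known. Alternatives were DESeq2 1.42.0, its size factors, library totals, no filter, 2-group fits, the replicate number, an epidermal score (mean log2 CPM of 15 tested epidermal genes), and leaving out each tumor.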

Additional observations from a re-analysis of the deposited data

Results flagged for a closer look

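Dsp was singled out because the tumors of its groups separated in opposite directions in 2 comparisons, neither of which passed the test (adjusted p = 0.130 and 0.547). All trametinib tumors lay below all controls (log2 fold change −7.68), and all combination tumors lay above all cediranib tumors (1.32). Of all tested genes, 0.264% were apart in these directions. The difference between both effects is the interaction contrast, which gave 9.003 (SE 3.03, adjusted p = 0.665, edgeR quasi-likelihood test) and was not called. The first value rests on 1 Dsp count in 3 trametinib libraries and was −3.95 without control 1. The gap behind the second runs from 95.3 to 105 CPM.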

How the results depend on the processing

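No setting other than those given here moved a count of called members by more than 1.5 times. Without a filter on low counts the members called were 3 for trametinib and 3 for cediranib against control, 5 for the combination against control, 5 against trametinib, 5 for trametinib against cediranib and 4 for the interaction, Dsg3 included in each count of 5. That fit held 29102 genes, and the share of them called was not counted. For Dsp in cediranib against control it gave an adjusted p of 2.3e-42 (edgeR quasi-likelihood test), beside 0.999 with the filter. Dsp differed widely between tumors of both groups, so no conclusion is drawn from these counts. DESeq2 called 2 for trametinib against control and 4 for combination against trametinib. Fits of only 2 groups called 3, 4 and 1 for combination against control, combination against trametinib and trametinib against cediranib. The replicate block called 2 and 1 for the first and second of these, and changed the call of Dsp in both (log2 fold changes 5.41 and 12.74) and of Pkp1 in trametinib against cediranib (−11.19). It also ended the calls of Cdh5 (other than combination against control), Nectin4 and Evpl against trametinib, Evpl against control, and Krt14, Perp and Des in trametinib against cediranib. Same-numbered tumors did not deviate together, with correlations of −0.22 to 0.36 (median −0.01) over 18 pairs, and 4 of 12 correlated best with a tumor of its own number, so the samples share only a number. With the epidermal score as a term, which ran from −1.66 to −1.35 in trametinib and from 2.51 to 3.21 in combination tumors and so cannot be told apart from the group there, 0 members were called in these 3 comparisons. Leaving out 1 tumor gave 1 to 3, 0 to 1 and 0 to 4 called members in the same order. Among the genes of the other junction and filament lists, few calls stayed with the epidermal score as a term. They were those of Itga6, of Cdh5 and Krt18 in trametinib against control, and of Krt18 in combination against cediranib.

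With the epidermal score signs turned for cediranib against control (Dsp −2.005, Pkp1 −2.58, Dsc3 −1.47), combination against cediranib (Dsp −0.21, Pkp1 −0.32, Dsc3 −0.48, Jup −0.015), combination against control (Dsp −2.22, Pkp1 −2.90, Dsc3 −1.95), combination against trametinib (Dsc3 −0.093, Jup −0.20) and trametinib against cediranib (Jup 0.19, Krt14 2.20). With library totals alone they turned for Jup in combination against control (0.021) and for Pkp4 in cediranib against control (0.00051), combination against trametinib (0.082) and the interaction (0.082). Leaving out 1 tumor turned signs near 0. For Jup the ranges were −0.41 to 0.13 (cediranib against control), −0.10 to 0.29 (combination against cediranib), −0.29 to 0.24 (combination against control) and −0.38 to 0.00426 (trametinib against cediranib). For Pkp4 they were −0.11 to 0.074 (cediranib against control), −0.11 to 0.071 (interaction), −0.0059 to 0.17 (combination against cediranib), −0.021 to 0.11 (combination against control) and −0.10 to 0.051 (combination against trametinib). The cause was not tested. Fold changes of Dsp, Pkp1 and Dsc3 against trametinib are limited by depth, at 1 and 0 counts in 3 libraries.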

Other observations

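Involucrin (Ivl), an envelope protein of the upper epidermis, did not follow the desmosome genes of stratified epithelia among the control tumors. It was 7.15, 33.9 and 12.6 CPM in control, 0 in each trametinib tumor, 11.6, 33.0 and 13.6 CPM in cediranib and 4.85, 7.26 and 5.38 CPM in combination tumors. Its highest tumors, control 2 and cediranib 2, had 6 and 5 counts of Dsp and 0 counts of Pkp1. The combination tumors overlapped the controls only at control 1. Hair follicle genes, a list of 9, summed to 1.70 CPM in cediranib 1 and 673 CPM in cediranib 3, although Dsp was 83.7 and 95.3 CPM in these tumors. In the combination the sum was 208 to 515 CPM. Dsg4, a desmoglein of the hair shaft, was 0.0999 CPM in cediranib 1, 1.24 CPM in cediranib 3 and 0.454 to 1.51 CPM in combination tumors.

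The cell type marker lists are given by their calls (edgeR, as for the members), and leaving out tumors was run only for Cdh5 among the genes named here. In the combination against control 1.91% of all tested genes were called higher and 1.71% lower. There 7 of 15 tested epidermal genes rose, among them Esrp1 (log2 fold change 4.57), Grhl3 (4.53), Trp63 (4.08) and Ovol1 (44.2-fold in counts, 95% counting interval 11.9 to 371). The hair follicle keratins Krt25 (8.73), Krt71 (8.65), Krt27 (235-fold, 64.6 to 1943) and Krt73 (786-fold, 141 to 31101) rose, 4 of 9, and the macrophage gene Cd68 fell by 1.59 on the log2 scale. Endothelial genes fell in 6 of 12, with Robo4 at −3.39, Pecam1 at −2.93, Tie1 at −2.43 and Cdh5 as given. For trametinib against control 5 of 12 endothelial genes fell, beside 2.4% of all genes called in either direction. Pecam1 at −2.38, Tie1 at −1.97, Flt1 at −1.82 and Cdh5 were among them, and Ivl was at least 181-fold lower.

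In the combination against trametinib 6 of 15 epidermal genes rose, beside 0.535% of all genes called higher. They included Ivl (at least 61.7-fold), Ovol1 (at least 29.5-fold), Esrp1 (354-fold in counts, 63.2 to 14039) and Grhl3 (122-fold, 21.6 to 4876). Cd68 was lower (−1.60), as were 18 of all 12897 tested genes. Against cediranib the endothelial genes Pecam1 (−2.86), Tie1 (−2.39) and Cdh5 (−1.89) fell in the combination, beside 2.45% of all genes called in either direction. Cdh5 passed in 1 of the 6 fits that left out a tumor. Trametinib against cediranib had 9 of 15 epidermal genes lower, beside 1.97% of all genes called lower. They included Ivl (at least 206-fold), Cnfn (at least 79.6-fold), Ovol1 (at least 13.6-fold) and Esrp1 (137-fold, 24.2 to 5461). The hair follicle keratins Krt27 (406-fold, 72.4 to 16064) and Krt71 (3775-fold, 677 to 149154) and the endothelial genes Pecam1 (−2.31) and Tie1 (−1.93) were lower in this comparison as well. The fibroblast genes Lum (3.82), Dpt (3.60) and Col3a1 (2.43) were higher, as were 196 of all 12897 tested genes.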
